A study of Mus musculus with 18 samples.

Results

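Collagen chain genes encode the alpha chains from which the collagens of the extracellular matrix are built. All genes whose symbol is Col, a number, the letter a and a number were taken, which gave 44 of the 35275 genes in the deposited tables. By class these were 11 fibrillar chains, 8 basement membrane chains and 25 others, and 30 of the 44 passed a filter on low values and could be tested. The libraries came from C2C12, 1 mouse myoblast line that fuses into myotubes when serum is lowered. Control cells, labelled wild type, were compared with cells overexpressing the spliced form and cells overexpressing the genomic form of MUNC, a noncoding RNA transcribed upstream of Myod1. Each of these lines was collected in growth medium with 20% fetal bovine serum at about 80% confluence (GM) and after 3 days in medium with 2% horse serum (DM3), with 3 biological replicates in each of the 6 groups. According to the labels, all of the cells came from a stock negative for PAX7, a transcription factor of muscle stem cells. The level of MUNC was not analysed here, and the labels do not say whether an overexpressing line was 1 clone or a pool.

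Each collagen molecule is a triple helix of alpha chains. Fibrillar collagens form the cross-striated fibrils of tendon, bone, skin and the connective tissue of muscle, basement membrane collagens form sheets against which muscle fibres sit, and beaded filament collagen (type VI) links both around the fibres. In muscle, most collagen is made by fibroblasts, but cultured myoblasts also make collagen, and inherited defects of type VI chains cause muscle weakness.

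MUNC spliced cells carried more RNA of the fibrillar chains Col1a2 and Col5a2 and of Col12a1, more Col8a1 in DM3, and less of the basement membrane chains Col4a1 and Col4a2. MUNC genomic cells carried more of the basement membrane chains Col4a1, Col4a2, Col4a5 and Col18a1, with Col18a1 at 1475 ± 157 FPM (SD, n = 3) against 220.1 ± 16.95 in control DM3, and more Col5a3, Col6a3 and Col7a1. Both lines carried more Col6a1, Col6a2 and Col4a5 than control in each medium. From GM to DM3, control cells rose in Col4a5, Col11a2 and Col18a1 and fell in Col4a1, Col5a3, Col6a3 and Col8a1. Each of these differences from control was called in both media unless 1 medium is given. The GM calls of Col1a2 in MUNC spliced and Col5a3 in MUNC genomic cells were fragile and were lost without certain single libraries.

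The unit throughout is FPM, a fragment count scaled to a common library size, in which 1 read of a library has 1 fixed value. Library depth was 38416702 to 68788327 reads, so that a count of 3 reads, the limit a count of 0 allows, was 0.0429 to 0.0757 FPM. These limits cover counting error only. Skeletal muscle markers (8 of 8 tested) summed to 112 to 126 FPM in control GM, 109.7 to 140.4 in MUNC spliced GM and 378 to 664 in MUNC genomic GM, and to 167 to 209.9, 294 to 1029 and 946 to 1117 in DM3. Myod1, the factor that defines the myoblast lineage, averaged only 0.0285 and 0.0993 FPM in control GM and DM3, close to absence in cells labelled as a myoblast line, while its relative Myf5 averaged 71.8 and 103 FPM. Myod1 was higher in MUNC spliced GM and DM3, at 12.4 and 28.6 FPM (adjusted p = 4.59e-06 and 2.77e-07). It was also higher in MUNC genomic GM and DM3, at 3.84 and 18.4 FPM (adjusted p = 0.00119 and 5.57e-07). No control library reached the filter on low values for Myod1, which was tested only through MUNC libraries. Its p-values against control are therefore no support for the difference. Myog, which drives myoblast fusion, averaged 0.0287 and 0.344 FPM in control GM and DM3, 9.27 and 106 in MUNC spliced and 0.0815 and 9.70 in MUNC genomic cells. With Myod1 and Myog this low in control DM3, differentiation here names the change from GM to DM3 and not a tested state of the cells. The part of these muscle markers in the collagen differences was not tested. The fibroblast marker Tcf21 was at 0 in all 18 libraries and Thy1 did not exceed 0.0368 FPM, but Ly6a reached 1739.8 FPM on average in control DM3. Adipocyte and macrophage markers, of 5 genes each, summed to at most 3.32 and 6.35 FPM in any library. In bulk RNA, fewer cells making a collagen and less collagen RNA per cell cannot be told apart.

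Collagen chains together took 1.34% ± 0.240 (SD, n = 3) of all FPM in control GM and 1.53% ± 0.105 in control DM3. The share was 2.43% ± 0.658 in MUNC spliced GM and 2.83% ± 0.129 in MUNC spliced DM3. It was 1.92% ± 0.594 in MUNC genomic GM and 2.32% ± 0.0743 in MUNC genomic DM3. In DM3 the shares of the 3 lines did not overlap, with control lowest and MUNC spliced highest. In GM, the MUNC genomic libraries overlapped with both other lines. With 3 libraries against 3, an exact permutation test cannot go below p = 0.10, so sums and shares are described by their overlap alone.

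Per kilobase of transcript, fibrillar chains made up 81.2% to 87.3% of collagen FPM in control GM and 87.1% to 88.4% in control DM3, and 86.7% to 88.6% and 82.8% to 87.3% in the MUNC spliced line. In the MUNC genomic line they made up 69.8% to 78.5% in GM and 73.00% to 73.6% in DM3, below every library of the other lines. The basement membrane share was lowest in the MUNC spliced line in each medium. It was 5.85% to 9.67% in control GM, 2.05% to 2.92% in MUNC spliced GM and 8.60% to 13.8% in MUNC genomic GM. The DM3 values were 6.05% to 6.13%, 2.08% to 2.49% and 15.1% to 15.7% in the same order, with no overlap between any of the lines. The share of beaded filament chains was 3.63% to 6.30% in control GM and 10.99% to 14.7% in MUNC genomic GM.

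**Figure D1:**
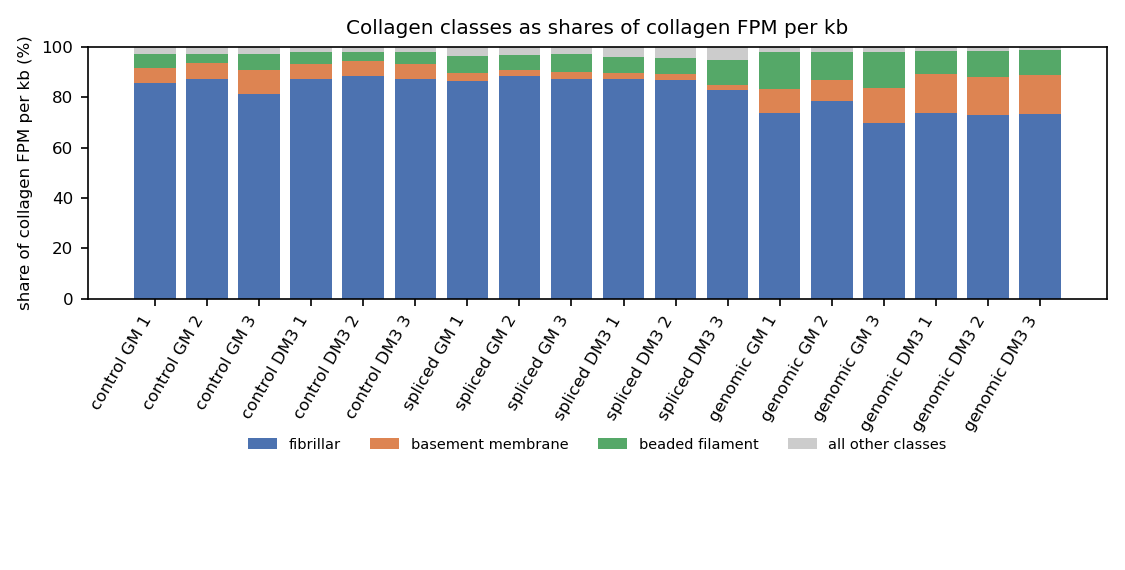
Shares of collagen FPM per kilobase of transcript (vertical axis, percent) in each of the 18 libraries (horizontal axis), stacked by class. The basement membrane segment is thinnest in the 6 MUNC spliced libraries and, in DM3, thickest in the MUNC genomic libraries, at 15.1% to 15.7%.

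Levels of single chains were set against each other only per kilobase of transcript. In control GM the leading chains were Col1a2 at 711 ± 141 FPM per kilobase (SD, n = 3), Col3a1 at 573 ± 175, Col1a1 at 374 ± 95.8 and Col5a2 at 197 ± 35.6. Col1a2 and Col3a1, the first and second of that order, did not differ beyond their spread in GM. Col3a1 had the highest mean in all 3 DM3 groups, at 995 ± 95.9 in control, 1691 ± 52.6 in MUNC spliced and 1596 ± 95.5 in MUNC genomic cells. Col18a1, a basement membrane chain at 45.9 ± 3.54 per kilobase in control DM3, ranked 3 among the chains of MUNC genomic DM3 at 308 ± 32.7.

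**Figure D2:**
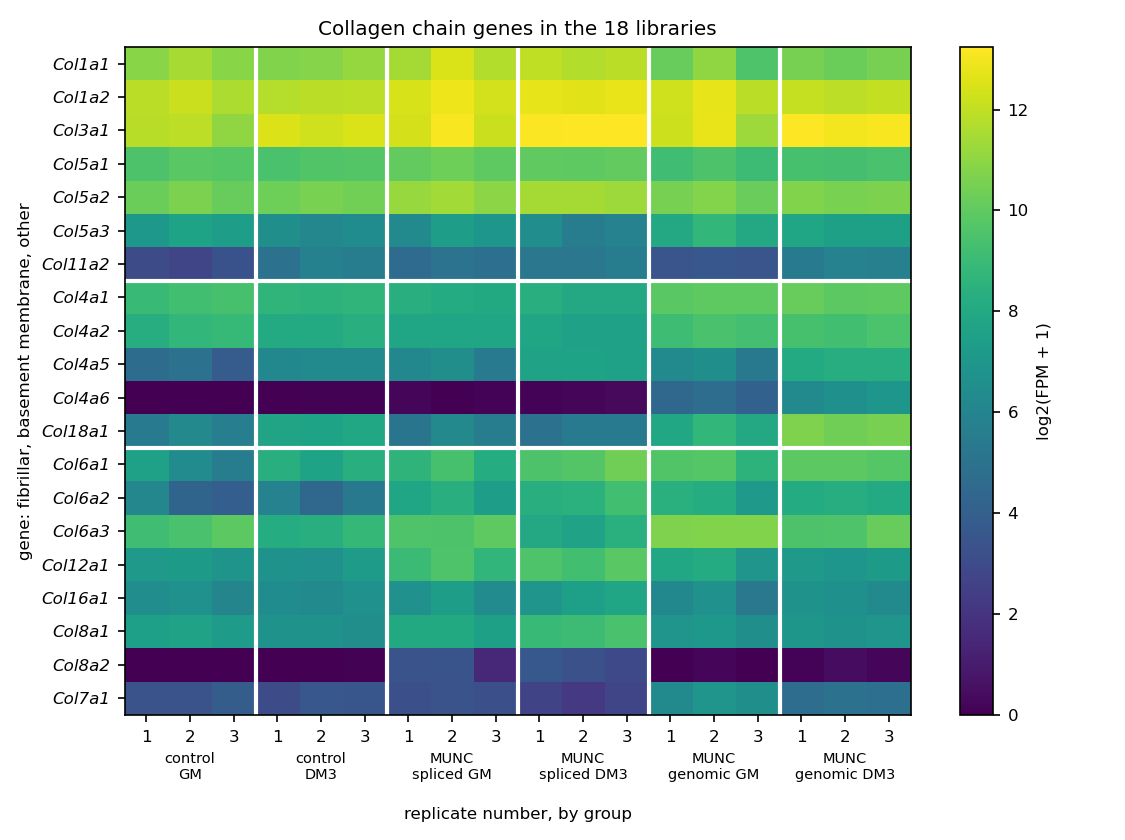
Level of 20 collagen chain genes (rows, grouped into fibrillar, basement membrane and other) in the 18 libraries (columns, by group and replicate number), as log2(FPM + 1) by colour. All genes share 1 colour scale. Col4a6 is brighter in the 6 MUNC genomic libraries, and Col8a2 in the 6 MUNC spliced libraries, than in the others. Col8a2 stays low on the scale there too, averaging 7.04 FPM in MUNC spliced GM and 8.92 in MUNC spliced DM3.

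Differential expression was tested with limma on log2(FPM + 1), and a gene was called at an adjusted p below 0.05 over all 13869 genes tested. Log2 changes on this scale understate the change of low genes. Of the 30 tested collagen chains, 18 reached the filter of 0.5 FPM in all 18 libraries, and 12 did so only in some, among them 7 in 9 libraries or fewer. These 7 passed through the groups where they were high, so the counts below describe the 30 and are no support for a collagen response. From GM to DM3, 10 and 5 of the 30 were called higher and lower in control, where 58.2% of all genes tested were called (29.6% and 28.6% higher and lower). In the MUNC spliced line 6 and 4 were called, against 35.6% of all genes (17.2% and 18.4%), and in the MUNC genomic line 7 and 2, against 51.4% (26.3% and 25.1%). The median log2 change of the 30 on differentiation was 0.073, 0.23 and 0.12 in control, MUNC spliced and MUNC genomic cells, beside 0.021, -0.008 and 0.018 for all genes tested. The change on differentiation itself differed from that in control for 5 of the 30 in MUNC spliced cells (14.4% of all genes, 7.43% and 6.94% higher and lower) and 5 in MUNC genomic cells (8.81%, 3.56% and 5.25%).

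Against control, both MUNC lines had more collagen chains called higher than lower. In GM, 12 and 2 of the 30 were called higher and lower in MUNC spliced cells (35.5% of all genes called in either direction, 18.2% and 17.3% higher and lower) and 13 and 2 in MUNC genomic cells (26.8%, 12.2% and 14.5%). In DM3 the counts were 14 and 6 in MUNC spliced cells (43.3%, 22.3% and 21.0%) and 14 and 4 in MUNC genomic cells (40.3%, 19.3% and 20.9%). Median log2 changes against control were 0.41 and 0.48 in GM and 0.43 and 0.32 in DM3 for MUNC spliced and MUNC genomic cells, beside medians of -0.021, -0.033, 0.009 and -0.0099 over all genes. Both lines were compared with the same control libraries. Between the MUNC lines, 9 and 9 chains were called higher and lower in MUNC spliced cells, against the MUNC genomic line, in GM (35.8% of all genes, 19.9% and 16.0%) and 13 and 10 in DM3 (44.2%, 23.4% and 20.8%).

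By class, the lines differed in which chains were called. Of 10 tested fibrillar chains, 5 were higher and 0 lower than control in MUNC spliced GM, and 6 and 0 in MUNC spliced DM3. The 6 include Col24a1 and Col27a1, which reached the filter in 3 libraries each, all of the MUNC spliced line. Their place in that count rested on this line. In MUNC genomic cells the fibrillar counts were 2 and 1 in GM and 2 and 0 in DM3. Of 5 tested basement membrane chains, Col4a6 reached the filter in the MUNC genomic libraries alone, so that its place among the 5 rested on them. The other 4 were each higher than control in MUNC genomic cells in both media. In MUNC spliced cells 1 and 2 of the 5 were higher and lower in GM and 1 and 3 in DM3. The shares of all genes called are those given above for the same comparisons. Compared directly, 4 of the 5 were lower in the MUNC spliced than in the MUNC genomic line in each medium, and none was higher. Col4a6 was among the 4, and its place in this count too rested on the MUNC genomic libraries.

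Type I collagen, the bulk of tendon and bone fibrils, is built from Col1a1 and Col1a2 chains. In GM, Col1a1 was 1874, 2871 and 1900.2 FPM in control, 2847, 5819 and 3304 in MUNC spliced and 1162, 2139 and 767 in MUNC genomic libraries. In DM3, Col1a1 was 1689, 1849 and 2246 FPM in control, 4009, 3400.0 and 3806 in MUNC spliced and 1475, 1213 and 1475 in MUNC genomic libraries. In DM3 all 3 MUNC spliced libraries lay above the other lines and all 3 MUNC genomic libraries below control. Col1a1 was higher in MUNC spliced than in control DM3 (log2 change 0.96, SE 0.31, adjusted p = 0.0205), whereas the difference between MUNC genomic and control DM3 did not pass (log2 change -0.47, SE 0.31, adjusted p = 0.254). The former missed the threshold without control DM3 replicate 1 or 2 or MUNC spliced DM3 replicate 1 (adjusted p = 0.0553 to 0.0634) and without the filter on low values (0.0594). The latter passed the threshold in a fit of only the compared groups (0.0475). In GM the log2 change was 0.81, adjusted p = 0.0549, in MUNC spliced and -0.81, adjusted p = 0.0669, in MUNC genomic cells. The MUNC spliced value passed the threshold without control GM replicate 2 or MUNC spliced GM replicate 1 (adjusted p = 0.0351 to 0.0359), with equal sums per library (0.0325), with the replicate number as a block (0.0338) and by DESeq2 on recovered reads (0.02003), and the MUNC genomic value passed the threshold without MUNC genomic GM replicate 2 (adjusted p = 0.00678) and with the replicate number as a block (0.0406), with a log2 change of -1.20 without that library. Set against each other, Col1a1 was higher in MUNC spliced than in MUNC genomic cells in GM (log2 change 1.61, SE 0.31, adjusted p = 0.000764) and in DM3 (log2 change 1.43, SE 0.31, adjusted p = 0.00144).

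In GM, Col1a2 was 3742, 4586 and 3076 FPM in control, 5651, 7536 and 5209.9 in MUNC spliced and 4924, 6872 and 3714 in MUNC genomic libraries. In DM3, Col1a2 was 3468, 3729.7 and 3912 FPM in control, 6847, 6345 and 7209 in MUNC spliced and 4329.9, 3904 and 4222 in MUNC genomic libraries. All 6 MUNC spliced libraries lay above all 6 control libraries. Col1a2 was higher than control in MUNC spliced GM (log2 change 0.69, SE 0.22, adjusted p = 0.0252) and DM3 (log2 change 0.88, SE 0.22, adjusted p = 0.00494). The GM call missed the threshold without control GM replicate 1 or 3 or MUNC spliced GM replicate 2 (adjusted p = 0.0562 to 0.122), without the filter on low values (0.183) and in a fit of only the compared groups (0.0970), and the DM3 call missed the threshold without the filter on low values (0.0704). In MUNC genomic cells the log2 changes against control were 0.42, adjusted p = 0.191, in GM and 0.17, adjusted p = 0.596, in DM3. The ratio of Col1a2 to Col1a1 per kilobase was 1.93 ± 0.249 (SD, n = 3) and 2.15 ± 0.189 in control GM and DM3 and 1.80 ± 0.385 and 2.02 ± 0.111 in the MUNC spliced line. It was 4.55 ± 0.915 and 3.33 ± 0.208 in the MUNC genomic line, where every library was above every library of the other lines.

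Col3a1 encodes the chain of type III collagen, which forms fibrils together with type I in muscle, vessels and skin. It lies at chr1:45311538-45349706 on the plus strand of chromosome 1, and its fibrillar neighbour Col5a2 at chr1:45374321-45503282 on the minus strand. The 250 bases before its annotated start are shown because Col3a1 was the leading chain of all DM3 groups. The sequence is RefSeq's for build GRCm38.p6, on the gene's strand, chr1:45311288-45311537, and the capitals mark a TATAAA motif 117 to 112 bases before the start.
Col3a1: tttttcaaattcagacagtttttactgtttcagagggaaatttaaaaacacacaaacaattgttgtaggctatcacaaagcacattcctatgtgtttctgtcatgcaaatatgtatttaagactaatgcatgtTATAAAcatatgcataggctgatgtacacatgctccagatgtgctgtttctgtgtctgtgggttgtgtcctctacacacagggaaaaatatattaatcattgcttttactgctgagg
Both strands of each window were searched for TATAAA as the TATA box, CCAAT as the binding sequence of NF-Y, GGGCGG as the GC box and CAGCTG as a sequence bound by myogenic factors, none of which contains another. CAGCTG was in none of the windows printed here. TATAAA was found in 12.4%, CCAAT in 33.8%, GGGCGG in 32.7% and CAGCTG in 13.0% of 32851 such windows of 250 bases. A match is a description of the letters only.

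In GM, Col3a1 was 3589, 3892 and 2075 FPM in control, 5345, 8959 and 4661 in MUNC spliced and 4803, 7098 and 2492 in MUNC genomic libraries. In DM3, Col3a1 was 5932, 4931 and 5753 FPM in control, 9095, 9677 and 9447 in MUNC spliced and 9381, 8322 and 8932 in MUNC genomic libraries. All MUNC spliced and MUNC genomic DM3 libraries lay above all control DM3 libraries, and in GM the MUNC genomic libraries overlapped with control. Col3a1 rose from GM to DM3 in control (log2 change 0.85, SE 0.34, adjusted p = 0.0402) and MUNC genomic cells (log2 change 1.01, SE 0.34, adjusted p = 0.0188), and in MUNC spliced cells the log2 change was 0.63, adjusted p = 0.153. The rise in control missed the threshold without control GM replicate 3 or control DM3 replicate 1, 2 or 3 (adjusted p = 0.0568 to 0.201) and without the filter on low values (0.188), with a log2 change of 0.56 without control GM replicate 3. The rise in MUNC genomic cells missed the threshold without MUNC genomic GM replicate 3 (adjusted p = 0.129), without the filter on low values (0.122) and in a fit of only the compared groups (0.113), with a log2 change of 0.60 without that library. Against control, Col3a1 was higher in MUNC spliced GM (log2 change 0.98, SE 0.34, adjusted p = 0.0318), a call that missed the threshold without control GM replicate 3 or MUNC spliced GM replicate 2 (adjusted p = 0.155 to 0.160), without the filter on low values (0.164) and in a fit of only the compared groups (0.0792). In DM3 the log2 change was 0.77, adjusted p = 0.0754, in MUNC spliced cells, which passed the threshold with the replicate number as a block (0.0365) and by DESeq2 on recovered reads (0.0299), and 0.68, adjusted p = 0.117, in MUNC genomic cells, which passed the threshold by DESeq2 on recovered reads (0.0498). The ratio of Col3a1 to Col1a1 per kilobase was 1.16 to 2.04 in control GM and 2.73 to 3.74 in control DM3. In the MUNC spliced line it was 1.503 to 2.00 and 2.42 to 3.03, and in the MUNC genomic line 3.47 to 4.41 and 6.46 to 7.31.

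Type V collagen, built from Col5a1, Col5a2 and Col5a3 chains, starts type I fibrils and limits their diameter. In GM, Col5a1 was 749, 939.7 and 845 FPM in control, 1073, 1298 and 1003 in MUNC spliced and 587, 746 and 540.1 in MUNC genomic libraries. In DM3, Col5a1 was 692, 804 and 840.5 FPM in control, 1035, 992 and 1077 in MUNC spliced and 664, 657 and 703 in MUNC genomic libraries. All 6 MUNC spliced libraries were above, and all but 1 of the MUNC genomic libraries below, every control library of the same medium, the exception being MUNC genomic DM3 replicate 3 at 703 FPM against a lowest control value of 692. Col5a1 was higher than control in MUNC spliced GM (log2 change 0.41, SE 0.14, adjusted p = 0.0286) and DM3 (log2 change 0.41, SE 0.14, adjusted p = 0.0226) and lower in MUNC genomic GM (log2 change -0.44, SE 0.14, adjusted p = 0.0243). All of these calls were fragile. The higher level in MUNC spliced GM missed the threshold without control GM replicate 1 or 3 or MUNC spliced GM replicate 2 (adjusted p = 0.0625 to 0.143), without the filter on low values (0.0593) and in a fit of only the compared groups (0.104). In MUNC spliced DM3 it missed the threshold without control DM3 replicate 1 or MUNC spliced DM3 replicate 3 (adjusted p = 0.0622 to 0.0923). The lower level in MUNC genomic GM missed the threshold without control GM replicate 2 or 3 or MUNC genomic GM replicate 1 or 3 (adjusted p = 0.0598 to 0.0960), without the filter on low values (0.0531), with equal sums per library (0.0572) and in a fit of only the compared groups (0.109). Compared directly, MUNC spliced cells were above MUNC genomic cells in GM (log2 change 0.85, adjusted p = 0.000142) and DM3 (0.62, adjusted p = 0.00166).

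In GM, Col5a2 was 1219.8, 1575 and 1128 FPM in control, 2388, 2754 and 1990.3 in MUNC spliced and 1457, 1757 and 1203 in MUNC genomic libraries. In DM3, Col5a2 was 1269, 1536 and 1370.0 FPM in control, 2839, 2773 and 2559.9 in MUNC spliced and 1706, 1528 and 1575 in MUNC genomic libraries. The MUNC spliced libraries were the highest 3 in each medium, with no overlap. Col5a2 was higher than control in MUNC spliced GM (log2 change 0.86, SE 0.17, adjusted p = 0.000893) and DM3 (log2 change 0.97, SE 0.17, adjusted p = 0.000226). In MUNC genomic cells the log2 changes were 0.17, adjusted p = 0.512, in GM and 0.21, adjusted p = 0.354, in DM3. Per kilobase the ratio of Col5a2 to Col5a1 was 1.96 ± 0.235 in control GM and 3.35 ± 0.288 in MUNC spliced DM3 (SD, n = 3). Col5a3 is a chain of restricted tissue distribution. In GM, Col5a3 was 134, 202 and 172 FPM in control, 77.3, 168 and 125 in MUNC spliced and 250.1, 428 and 257 in MUNC genomic libraries. In DM3, Col5a3 was 95.98, 69.03 and 87.3 FPM in control, 89.1, 46.04 and 57.2 in MUNC spliced and 229, 183 and 183 in MUNC genomic libraries. In each medium the MUNC genomic libraries were highest without overlap. Col5a3 fell on differentiation in control (log2 change -0.997, SE 0.28, adjusted p = 0.00626) and in MUNC spliced cells (log2 change -0.92, SE 0.28, adjusted p = 0.0181). It was higher than control in MUNC genomic GM (log2 change 0.85, SE 0.28, adjusted p = 0.0342) and DM3 (log2 change 1.23, SE 0.28, adjusted p = 0.00225), and, in DM3, lower in the MUNC spliced than in the MUNC genomic line (log2 change -1.66, adjusted p = 0.000151). The GM call missed the threshold without control GM replicate 1 or 3 or MUNC genomic GM replicate 2 (adjusted p = 0.0670 to 0.172) and without the filter on low values (0.0788). The fall in MUNC spliced cells missed the threshold without MUNC spliced GM replicate 2 or 3 or MUNC spliced DM3 replicate 2 or 3 (adjusted p = 0.0610 to 0.0932) and in a fit of only the compared groups (0.0856).

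**Figure D3:**
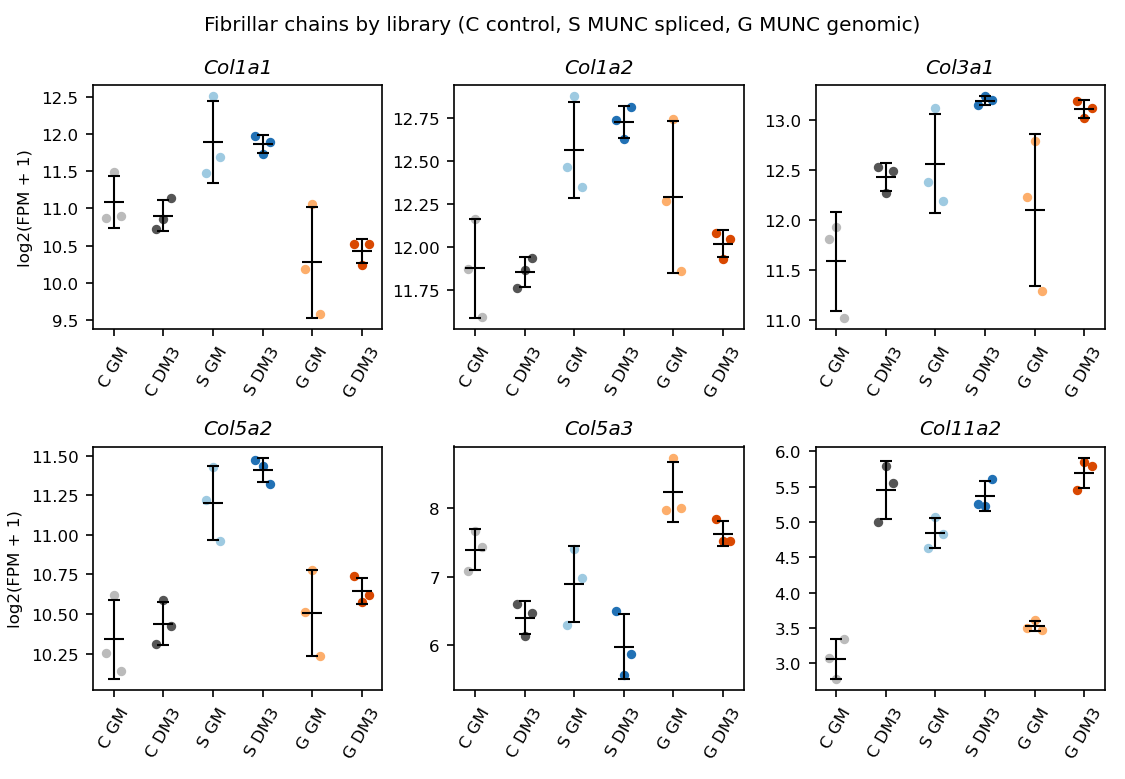
Level of 6 fibrillar chain genes as log2(FPM + 1) (vertical axes) by group (horizontal axes). Points are libraries, and bars are the mean with the SD of these log2 values over 3 libraries. Col1a1, Col1a2 and Col5a2 are highest in MUNC spliced cells, and Col5a3 is highest in MUNC genomic cells.

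Col11a1 and Col11a2 encode chains of type XI collagen, a cartilage collagen that co-assembles with other fibrils. In GM, Col11a2 was 7.44, 5.84 and 9.14 FPM in control, 23.8, 32.4 and 27.5 in MUNC spliced and 10.3, 11.2 and 10.1 in MUNC genomic libraries. In DM3, Col11a2 was 30.8, 54.6 and 45.95 FPM in control, 37.1, 36.4 and 47.9 in MUNC spliced and 42.7, 56.7 and 54.1 in MUNC genomic libraries. The control and MUNC genomic libraries were higher in DM3 than in GM with no overlap, and in GM the MUNC spliced libraries were above those of the other lines. Col11a2 rose on differentiation in control (log2 change 2.38, SE 0.20, adjusted p = 1.81e-07) and MUNC genomic cells (log2 change 2.17, SE 0.20, adjusted p = 7.85e-07). In MUNC spliced GM it was higher than in control GM (log2 change 1.78, SE 0.20, adjusted p = 4.07e-06), and the log2 change of 0.52, adjusted p = 0.0489, on differentiation was smaller than that in control by 1.86 on the log2 scale (interaction -1.86, adjusted p = 0.000779). The rise within the MUNC spliced line missed the threshold without MUNC spliced GM replicate 1 or 3 or MUNC spliced DM3 replicate 1, 2 or 3 (adjusted p = 0.0527 to 0.192), with a pseudocount of 0.1 (0.0524), without the filter on low values (0.0877), with equal sums per library (0.0661) and in a fit of only the compared groups (0.0628). Col11a1 was 0.597, 0.832 and 0.154 FPM in control GM, 0.227, 0 and 0.0361 in MUNC spliced GM and 7.56, 10.2 and 1.45 in MUNC genomic GM. The DM3 values were 1.17, 0.947 and 1.71, 0.456, 0.192 and 0.235 and 14.1, 11.6 and 9.23 FPM. All 6 MUNC genomic libraries except GM replicate 3 were above every library of the other lines, and Col11a1 was higher than control in MUNC genomic GM (log2 change 2.04, SE 0.38, adjusted p = 0.000785) and DM3 (log2 change 2.47, SE 0.38, adjusted p = 7.04e-05). Cartilage markers (2 of 7 tested) summed to 45.6 to 63.6, 34.2 to 57.8 and 46.96 to 60.3 FPM in GM and 65.8 to 83.9, 42.4 to 46.6 and 76.3 to 121 in DM3 in control, MUNC spliced and MUNC genomic cells. Acan did not exceed 0.514 FPM and Matn1 0.0395 FPM in any library, and Sox9 made up most of the sum. The part of these markers in the type XI levels was not tested.

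The remaining fibrillar chains were low. Col2a1, the main collagen of cartilage, was not tested, with at most 1.59 FPM in any library, and Col24a1 and Col27a1 did not exceed 1.65 and 1.05 FPM. Tendon markers, of which 5 of 5 were tested, were given beside the fibrillar chains because tendon cells make them. They summed to 221 to 568 FPM in control GM, 341 to 414 in MUNC spliced GM and 204 to 636 in MUNC genomic GM, and to 485 to 854, 813 to 1073 and 798 to 1249.6 in DM3. Egr1, which many cell types express, made up most of these sums, at 323 to 885 FPM by group, and was called in no comparison with control. Tnmd averaged 5.56 and 22.1 FPM in MUNC spliced GM and DM3 and at most 0.122 in the other groups, and Fmod 10.5 and 17.8 against at most 0.195. Mkx, a tendon transcription factor, went the other way, with 4.60 and 4.98 FPM in control GM and DM3 against 0 and 0.00603 in MUNC spliced cells (adjusted p = 1.88e-10 and 1.07e-10) and 0 in both MUNC genomic groups. Mkx reached the filter in control libraries alone, so these p-values are no support for the difference. Scx averaged 41.5 to 49.7 FPM in control and MUNC spliced groups and 83.6 and 89.3 in MUNC genomic GM and DM3. Bone markers (3 of 8 tested) summed to 114 to 124, 93.2 to 108 and 98.4 to 103 FPM in GM and 255 to 358, 77.5 to 102 and 58.9 to 66.6 in DM3 in control, MUNC spliced and MUNC genomic cells, with Ibsp at 0 in all libraries. Runx2 and Phex made up most of these sums. In control GM and DM3, Phex averaged 33.4 and 216 FPM and Runx2 86.0 and 92.5. Fibroblast markers (4 of 6 tested) summed to 65.9 to 164, 147 to 284 and 32.6 to 78.2 FPM in GM and 1548 to 1941, 1019.5 to 1416 and 70.9 to 75.5 in DM3 in control, MUNC spliced and MUNC genomic cells. Ly6a made up most of the sum in control and MUNC spliced groups. Pdgfra averaged 7.24 and 10.3 FPM in control GM and DM3 and was higher in MUNC genomic cells, at 24.2 and 26.1 FPM (adjusted p = 7.32e-06 and 4.88e-05). Ly6a went the other way, with 34.8 and 32.9 FPM in MUNC genomic GM and DM3 against 116 and 1740 in control (adjusted p = 0.00305 and 8.05e-09). Dpt averaged 0.0165 FPM in MUNC genomic DM3 and 0.770 in control DM3. Pi16 averaged 5.40, 0.951 and 14.1 FPM in control, MUNC spliced and MUNC genomic DM3. The part of these markers in the fibrillar levels was not tested.

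Type IV collagen is the network of all basement membranes, and its common form is built from Col4a1 and Col4a2 chains. The 2 genes lie head to head on chromosome 8, with annotated starts 21 bases apart on opposite strands, and whether reads were counted by strand is not given in the sources used here. In GM, Col4a1 was 484, 597 and 673 FPM in control, 323, 283 and 267 in MUNC spliced and 914, 1002 and 991 in MUNC genomic libraries. In DM3, Col4a1 was 407, 380.4 and 412 FPM in control, 318, 257 and 251 in MUNC spliced and 1128, 958 and 999 in MUNC genomic libraries. In both media the lines did not overlap, with MUNC spliced lowest and MUNC genomic highest. Col4a1 fell on differentiation in control (log2 change -0.54, SE 0.13, adjusted p = 0.00198). It was lower than control in MUNC spliced GM (log2 change -0.995, SE 0.13, adjusted p = 2.18e-05) and DM3 (log2 change -0.54, SE 0.13, adjusted p = 0.00275) and higher in MUNC genomic GM (log2 change 0.74, SE 0.13, adjusted p = 0.000421) and DM3 (log2 change 1.36, SE 0.13, adjusted p = 3.13e-07). The change on differentiation was higher by 0.62 on the log2 scale in MUNC genomic than in control cells (interaction 0.62, adjusted p = 0.0426), a call that missed the threshold without control GM replicate 2 or 3, MUNC genomic GM replicate 1, 2 or 3, control DM3 replicate 1, 2 or 3 or MUNC genomic DM3 replicate 1, 2 or 3 (adjusted p = 0.0565 to 0.110), without the filter on low values (0.0738) and in a fit of only the compared groups (0.0526).

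In GM, Col4a2 was 306, 441 and 467 FPM in control, 222, 221 and 217 in MUNC spliced and 557, 688 and 629.6 in MUNC genomic libraries. In DM3, Col4a2 was 269, 277 and 323 FPM in control, 219.5, 189 and 192 in MUNC spliced and 672, 604 and 708 in MUNC genomic libraries. Again MUNC spliced libraries were lowest and MUNC genomic libraries highest in each medium. Col4a2 was lower than control in MUNC spliced GM (log2 change -0.85, SE 0.14, adjusted p = 0.0002000) and DM3 (log2 change -0.53, SE 0.14, adjusted p = 0.00581) and higher in MUNC genomic GM (log2 change 0.64, SE 0.14, adjusted p = 0.00253) and DM3 (log2 change 1.19, SE 0.14, adjusted p = 3.78e-06). The MUNC genomic GM call missed the threshold in a fit of only the compared groups (0.0507). It fell on differentiation in control (log2 change -0.46, SE 0.14, adjusted p = 0.00937), a call that missed the threshold without control GM replicate 3 (adjusted p = 0.0575) and in a fit of only the compared groups (0.0596), and the control GM and DM3 libraries overlapped. Per kilobase, the ratio of Col4a2 to Col4a1 averaged 0.660 to 0.779 over the 6 groups.

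Col4a5 and Col4a6 encode type IV chains of restricted distribution, found together in the basement membranes of smooth muscle and skin, and lie head to head on chromosome X. Both promoters are shown because the pair behaved unequally, Col4a5 being present in all groups and Col4a6 above 0.5 FPM in the MUNC genomic line alone. They are RefSeq's for GRCm38.p6, each on its gene's strand and ending at the start site or at the first exon base: Col4a5 chrX:141475169-141475384, plus strand, with a CCAAT motif 196 to 192 bases before the start in capitals and a GGGCGG motif 30 to 25 bases before it, among the bases left out, and Col4a6 chrX:141474077-141474326, minus strand, with CCGCCC, the GGGCGG motif on the other strand, 21 to 16 bases before the start in capitals.
Col4a5: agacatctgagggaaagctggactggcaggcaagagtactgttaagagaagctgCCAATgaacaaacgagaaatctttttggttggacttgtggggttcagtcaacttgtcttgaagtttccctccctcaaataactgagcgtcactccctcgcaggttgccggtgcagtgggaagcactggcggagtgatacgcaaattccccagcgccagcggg
Col4a6: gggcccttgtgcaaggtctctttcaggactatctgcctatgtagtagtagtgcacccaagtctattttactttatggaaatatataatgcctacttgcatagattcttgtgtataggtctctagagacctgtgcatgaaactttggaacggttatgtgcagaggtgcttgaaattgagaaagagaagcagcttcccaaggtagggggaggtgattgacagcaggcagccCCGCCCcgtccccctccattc
Of the Col4a5 window 34 bases that belong to an annotated exon are not shown.

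In GM, Col4a5 was 24.5, 31.1 and 13.7 FPM in control, 71.2, 92.7 and 44.7 in MUNC spliced and 79.00, 94.7 and 39.9 in MUNC genomic libraries. In DM3, Col4a5 was 70.6, 76.7 and 77.4 FPM in control, 198, 204 and 191 in MUNC spliced and 271, 307 and 303 in MUNC genomic libraries. Every line was higher in DM3 than in GM, and both MUNC lines were above control in each medium, all with no overlap. Col4a5 rose on differentiation in control (log2 change 1.73, SE 0.30, adjusted p = 0.000136), MUNC spliced (log2 change 1.55, SE 0.30, adjusted p = 0.000922) and MUNC genomic cells (log2 change 2.11, SE 0.30, adjusted p = 2.99e-05). It was higher than control in MUNC spliced GM (log2 change 1.56, SE 0.30, adjusted p = 0.0008001) and DM3 (log2 change 1.39, SE 0.30, adjusted p = 0.00143) and in MUNC genomic GM (log2 change 1.57, SE 0.30, adjusted p = 0.000969) and DM3 (log2 change 1.96, SE 0.30, adjusted p = 6.94e-05). Col4a6 was 0, 0.0177 and 0 FPM in control GM and 0.0192, 0.0395 and 0.0553 in control DM3, values of a few reads at most. In the MUNC spliced line it was 0.177, 0.0183 and 0.0902 in GM and 0.0759, 0.139 and 0.271 in DM3. In the MUNC genomic line it was 20.2, 25.7 and 16.5 in GM and 80.2, 98.04 and 121 in DM3, far above all 12 other libraries. The adjusted p against control was 2.02e-12 in GM and 1.69e-14 in DM3, and within the MUNC genomic line Col4a6 rose on differentiation (log2 change 2.21, SE 0.16, adjusted p = 1.04e-07). Col4a6 was tested only because the MUNC genomic libraries reached the filter, so its p-values against control are no support for the difference. The fitted change against control depends on the pseudocount and no fold is given. The interaction of 2.16 was -0.10 by edgeR and -0.42 by DESeq2, and the cause of the change in sign was not tested. Within the MUNC genomic line the ratio of Col4a6 to Col4a5 per kilobase was 0.308 ± 0.0859 in GM and 0.333 ± 0.0536 in DM3.

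Col18a1 encodes a basement membrane collagen that carries heparan sulfate and whose end fragment is endostatin. Its promoter is shown because its group means spanned 37.7-fold, the widest range among chains that averaged at least 20 FPM in every group. The window is chr10:77166549-77166780 on the minus strand (RefSeq, GRCm38.p6), 18 bases of an annotated exon are not shown, and the capitals mark ATTGG, the CCAAT motif on the other strand, 210 to 206 bases before the start, and CCGCCC 61 to 56, 43 to 38 and 33 to 28 bases before it.
Col18a1: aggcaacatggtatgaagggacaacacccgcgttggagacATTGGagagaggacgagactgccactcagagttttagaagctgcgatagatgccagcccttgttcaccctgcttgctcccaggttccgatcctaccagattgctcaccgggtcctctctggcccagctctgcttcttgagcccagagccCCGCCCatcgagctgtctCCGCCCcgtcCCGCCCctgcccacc

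In GM, Col18a1 was 44.8, 75.3 and 50.4 FPM in control, 33.97, 73.4 and 47.04 in MUNC spliced and 239, 435 and 258 in MUNC genomic libraries. In DM3, Col18a1 was 215, 206 and 239 FPM in control, 30.1, 43.7 and 43.4 in MUNC spliced and 1628, 1314 and 1482 in MUNC genomic libraries. The DM3 groups did not overlap, with all 3 MUNC spliced libraries below all 3 control libraries and all 3 MUNC genomic libraries above them. Col18a1 rose on differentiation in control (log2 change 1.97, SE 0.26, adjusted p = 1.16e-05) and MUNC genomic cells (log2 change 2.29, SE 0.26, adjusted p = 4.61e-06), and in MUNC spliced cells the log2 change was -0.34, adjusted p = 0.332. This difference from control was itself called (interaction -2.31, adjusted p = 0.00130). In DM3, Col18a1 was lower than control in MUNC spliced cells (log2 change -2.48, SE 0.26, adjusted p = 1.58e-06) and higher in MUNC genomic cells (log2 change 2.74, SE 0.26, adjusted p = 3.81e-07). In GM it was higher in MUNC genomic cells (log2 change 2.41, SE 0.26, adjusted p = 3.11e-06), and MUNC spliced cells gave -0.17, adjusted p = 0.637, a change whose sign turned without control GM replicate 2 (0.042) or MUNC spliced GM replicate 1 (0.083). Compared directly in DM3, MUNC spliced cells were below MUNC genomic cells, with a difference of -5.22 on the log2 scale (adjusted p = 1.22e-10).

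Of the other basement membrane chains, Col4a3, Col4a4 and Col15a1 were not tested. The highest value in any library was 0.202 FPM for Col4a3, 0.814 for Col4a4 and 0.0461 for Col15a1, a chain of muscle and capillary basement membranes. Endothelial and smooth muscle cells make type IV chains and Col18a1. Endothelial markers, of which 1 of 5 was tested, summed to at most 0.619 FPM in control and MUNC spliced libraries and to 7.10 to 7.37 and 3.89 to 4.99 FPM in MUNC genomic GM and DM3, nearly all of it Cdh5, while Kdr, Tie1 and Emcn did not exceed 0.0341 FPM. Smooth muscle markers (5 of 6 tested) summed to 1316 to 2205, 1898 to 2683 and 1987 to 2445 FPM in GM and 1293 to 1438, 1989 to 3293 and 2357 to 3740.0 in DM3 in control, MUNC spliced and MUNC genomic cells, with Myh11 at most 0.488 FPM. Acta2 made up most of each sum. Lmod1 averaged 1.64 FPM in control DM3 and 23.6 in MUNC genomic DM3 (adjusted p = 2.01e-07), whereas Cnn1 averaged 6.36 and 1.75 (adjusted p = 0.00189). Desmin (Des), an intermediate filament of all muscle types, averaged 77.5, 58.8 and 898 FPM in DM3 in the same order. The part of these markers in the basement membrane levels was not tested.

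**Figure D4:**
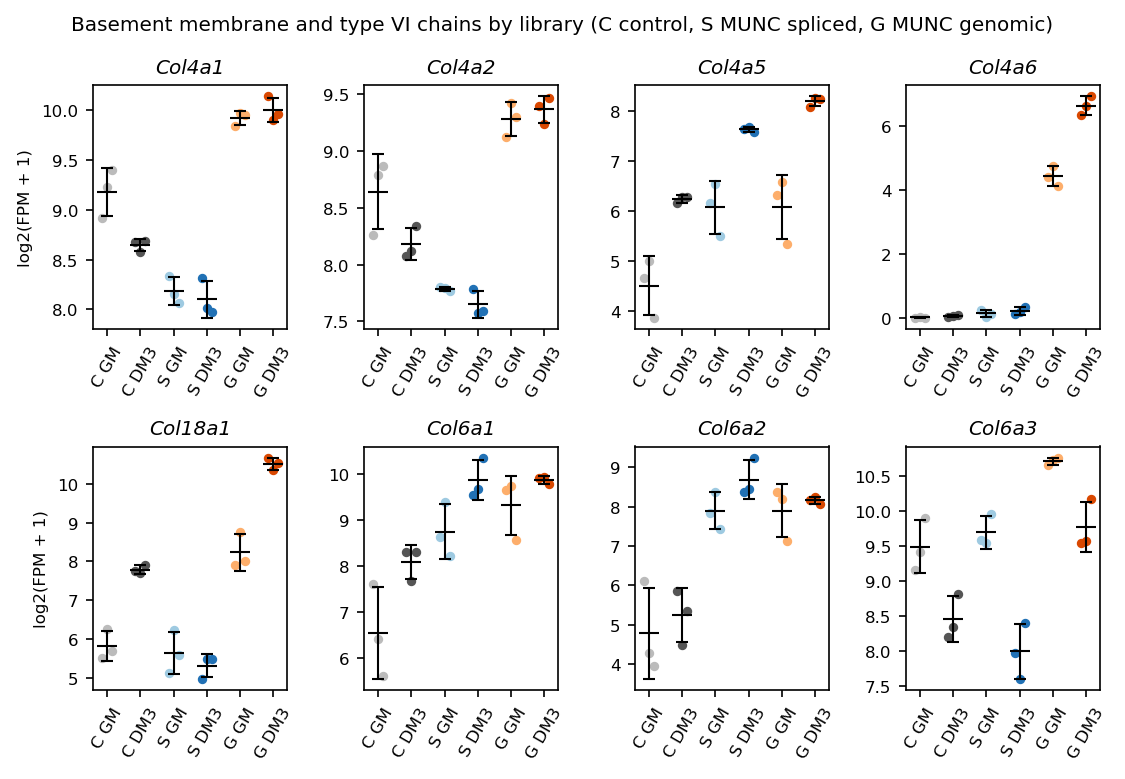
Level of 5 basement membrane and 3 type VI chain genes as log2(FPM + 1) (vertical axes) by group (horizontal axes). Points are libraries, and bars are the mean with the SD of these log2 values over 3 libraries. In DM3 all 5 basement membrane genes are highest in MUNC genomic cells, and in both media Col6a1 and Col6a2 are lowest in control.

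Type VI collagen forms beaded filaments around muscle fibres from Col6a1, Col6a2 and a longer chain such as Col6a3. In GM, Col6a1 was 193, 84.2 and 47.6 FPM in control, 391, 668 and 297 in MUNC spliced and 800.0, 845 and 379 in MUNC genomic libraries. In DM3, Col6a1 was 314, 202 and 316 FPM in control, 743, 818 and 1303 in MUNC spliced and 964, 972 and 869 in MUNC genomic libraries. In each medium every MUNC library was above every control library. Col6a1 was higher than control in MUNC spliced GM (log2 change 2.20, SE 0.42, adjusted p = 0.000780) and DM3 (log2 change 1.76, SE 0.42, adjusted p = 0.003000) and in MUNC genomic GM (log2 change 2.78, SE 0.42, adjusted p = 0.000118) and DM3 (log2 change 1.78, SE 0.42, adjusted p = 0.00299). It rose on differentiation in control (log2 change 1.55, SE 0.42, adjusted p = 0.00485). The MUNC spliced line gave 1.11, adjusted p = 0.0495, and this missed the threshold without MUNC spliced GM replicate 1 or 3 or MUNC spliced DM3 replicate 2 or 3 (adjusted p = 0.0782 to 0.197), with a pseudocount of 0.1 (0.0512), without the filter on low values (0.107), with equal sums per library (0.0592), in a fit of only the compared groups (0.0544) and by edgeR on recovered reads (0.0584).

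In GM, Col6a2 was 68.05, 18.6 and 14.4 FPM in control, 229, 332 and 173 in MUNC spliced and 332, 289.7 and 139.8 in MUNC genomic libraries. In DM3, Col6a2 was 57.00, 21.6 and 40.1 FPM in control, 328, 349 and 605 in MUNC spliced and 285, 301 and 268 in MUNC genomic libraries. Control GM replicate 1 stood above the other control GM libraries for Col6a1 and Col6a2 alike, and still below all MUNC libraries. Col6a2 was higher than control in MUNC spliced GM (log2 change 3.11, SE 0.48, adjusted p = 0.000119) and DM3 (log2 change 3.45, SE 0.48, adjusted p = 2.72e-05) and in MUNC genomic GM (log2 change 3.12, SE 0.48, adjusted p = 0.000129) and DM3 (log2 change 2.92, SE 0.48, adjusted p = 0.000132). Mean levels were 39.6 ± 17.7 FPM (SD, n = 3) in control DM3, 428 ± 154 in MUNC spliced DM3 and 285 ± 16.7 in MUNC genomic DM3.

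Col6a3 is the longer chain of most type VI molecules. In GM, Col6a3 was 573, 681 and 959 FPM in control, 771, 743 and 995 in MUNC spliced and 1614, 1704 and 1727 in MUNC genomic libraries. In DM3, Col6a3 was 294, 326 and 453 FPM in control, 252, 194 and 338 in MUNC spliced and 748, 764 and 1161 in MUNC genomic libraries. The MUNC genomic libraries were highest in each medium, without overlap in GM and in DM3. Col6a3 fell on differentiation in control (log2 change -1.03, SE 0.23, adjusted p = 0.00124), MUNC spliced (log2 change -1.70, SE 0.23, adjusted p = 6.70e-05) and MUNC genomic cells (log2 change -0.95, SE 0.23, adjusted p = 0.00296). Against control it was higher in MUNC genomic GM (log2 change 1.22, SE 0.23, adjusted p = 0.000948) and DM3 (log2 change 1.31, SE 0.23, adjusted p = 0.000281), while MUNC spliced cells gave 0.20, adjusted p = 0.527, in GM and -0.46, adjusted p = 0.121, in DM3. The DM3 value passed the threshold without MUNC spliced DM3 replicate 3 (adjusted p = 0.0392) and with the replicate number as a block (0.00823). The ratio of Col6a3 to Col6a1 per kilobase was 1.36 to 9.17 in control GM and 0.426 to 0.735 in control DM3, 0.507 to 1.52 and 0.108 to 0.154 in the MUNC spliced line and 0.918 to 2.07 and 0.353 to 0.608 in the MUNC genomic line, so that every DM3 library had less Col6a3 per Col6a1 than any GM library of its line. Of the alternative long chains, Col6a4 did not exceed 2.99 FPM and Col6a5 and Col6a6 0.145 and 0.0252 FPM in any library.

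Fibril-associated collagens sit on the surface of fibrils, and Col12a1 encodes the chain found in tendon and in the connective tissue of muscle. In GM, Col12a1 was 139, 147 and 117 FPM in control, 528, 779 and 420.5 in MUNC spliced and 236, 283 and 121 in MUNC genomic libraries. In DM3, Col12a1 was 112, 104 and 152 FPM in control, 765, 595 and 919 in MUNC spliced and 142, 125 and 149.7 in MUNC genomic libraries. All 6 MUNC spliced libraries were above the 12 others. Col12a1 was higher than control in MUNC spliced GM (log2 change 2.05, SE 0.27, adjusted p = 2.84e-05) and DM3 (log2 change 2.62, SE 0.27, adjusted p = 1.25e-06) and higher than MUNC genomic in GM (log2 change 1.47, SE 0.27, adjusted p = 0.000505) and DM3 (log2 change 2.43, SE 0.27, adjusted p = 1.99e-06). Against control, MUNC genomic cells gave 0.58, adjusted p = 0.128, in GM and 0.19, adjusted p = 0.614, in DM3. The GM value passed the threshold without MUNC genomic GM replicate 3 (adjusted p = 0.00709) and by DESeq2 on recovered reads (0.0399). Col16a1, a chain of small fibril-associated collagen in skin and muscle, had smaller differences. In GM, Col16a1 was 88.5, 104 and 63.4 FPM in control, 102, 166 and 82.1 in MUNC spliced and 70.4, 101 and 38.2 in MUNC genomic libraries. In DM3, Col16a1 was 87.3, 79.5 and 105 FPM in control, 118, 179 and 217 in MUNC spliced and 105, 100.3 and 79.6 in MUNC genomic libraries. The MUNC spliced libraries overlapped with control in GM and were all above control in DM3 (log2 change 0.88, SE 0.32, adjusted p = 0.0339), a call that missed the threshold without control DM3 replicate 1 or 2 or MUNC spliced DM3 replicate 2 or 3 (adjusted p = 0.0727 to 0.131) and without the filter on low values (0.0735). The other fibril-associated chains were low: Col9a3, Col14a1, Col20a1 and Col22a1 were tested and did not exceed 2.29, 3.32, 3.85 and 0.742 FPM.

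Col8a1 and Col8a2 encode chains of type VIII collagen, a short-chain collagen of vessel walls and of the membrane behind the cornea. In GM, Col8a1 was 176, 198 and 154 FPM in control, 266, 261 and 185 in MUNC spliced and 118, 132 and 94.4 in MUNC genomic libraries. In DM3, Col8a1 was 111, 107 and 92.00 FPM in control, 507, 538 and 694 in MUNC spliced and 129.7, 111 and 118 in MUNC genomic libraries. In DM3 the MUNC spliced libraries were above all the others, and in MUNC spliced cells DM3 was above GM. Col8a1 fell on differentiation in control (log2 change -0.76, SE 0.16, adjusted p = 0.000773) and rose in MUNC spliced cells (log2 change 1.29, SE 0.16, adjusted p = 2.86e-05), and the difference between these changes was called (interaction 2.05, adjusted p = 0.000110). In DM3 it was higher in MUNC spliced than control cells (log2 change 2.47, SE 0.16, adjusted p = 6.08e-09). In MUNC spliced GM the log2 change against control was 0.42, adjusted p = 0.0537, which passed the threshold without control GM replicate 2 or MUNC spliced GM replicate 3 (adjusted p = 0.0102 to 0.0421), with equal sums per library (0.0176), with the replicate number as a block (0.0327) and by DESeq2 on recovered reads (0.0407). It was lower than control in MUNC genomic GM (log2 change -0.62, SE 0.16, adjusted p = 0.00898). The MUNC genomic interaction of 0.83, adjusted p = 0.0309, missed the threshold without control GM replicate 1 or 2, MUNC genomic GM replicate 1 or 3, control DM3 replicate 2 or 3 or MUNC genomic DM3 replicate 1 or 3 (adjusted p = 0.0547 to 0.0825) and without the filter on low values (0.0610). Col8a2 exceeded 0.5 FPM in the MUNC spliced line alone. It was 9.36, 9.84 and 1.91 FPM in MUNC spliced GM and 11.6, 8.57 and 6.60 in MUNC spliced DM3, against at most 0.0737 FPM in any control library and 0.346 FPM in any MUNC genomic library. The adjusted p of MUNC spliced against control was 1.25e-05 in GM and 1.40e-06 in DM3, and no fold is given for control levels of a few reads. Col8a2 was tested only because the MUNC spliced libraries reached the filter, so these p-values are no support for the difference.

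Col7a1 encodes the chain of anchoring fibrils, which tie the skin's basement membrane to the dermis. In GM, Col7a1 was 9.46, 9.33 and 14.2 FPM in control, 8.28, 9.57 and 8.33 in MUNC spliced and 78.8, 117 and 95.95 in MUNC genomic libraries. In DM3, Col7a1 was 7.57, 10.9 and 10.7 FPM in control, 5.68, 3.55 and 5.75 in MUNC spliced and 25.96, 29.5 and 27.8 in MUNC genomic libraries. All 6 MUNC genomic libraries were above the 12 others. Col7a1 was higher than control in MUNC genomic GM (log2 change 3.04, SE 0.20, adjusted p = 3.93e-09) and DM3 (log2 change 1.44, SE 0.20, adjusted p = 2.00e-05) and lower in MUNC spliced DM3 (log2 change -0.85, SE 0.20, adjusted p = 0.00235). It fell on differentiation in MUNC genomic cells (log2 change -1.76, SE 0.20, adjusted p = 3.74e-06) and MUNC spliced cells (log2 change -0.72, SE 0.20, adjusted p = 0.00950), and in control the log2 change was -0.15, adjusted p = 0.523. The fall in MUNC spliced cells missed the threshold without MUNC spliced DM3 replicate 2 (adjusted p = 0.0593), and the change in control turned to 0.029 without control GM replicate 3. The MUNC genomic change differed from that in control (interaction -1.60, adjusted p = 0.00147).

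**Figure D5:**
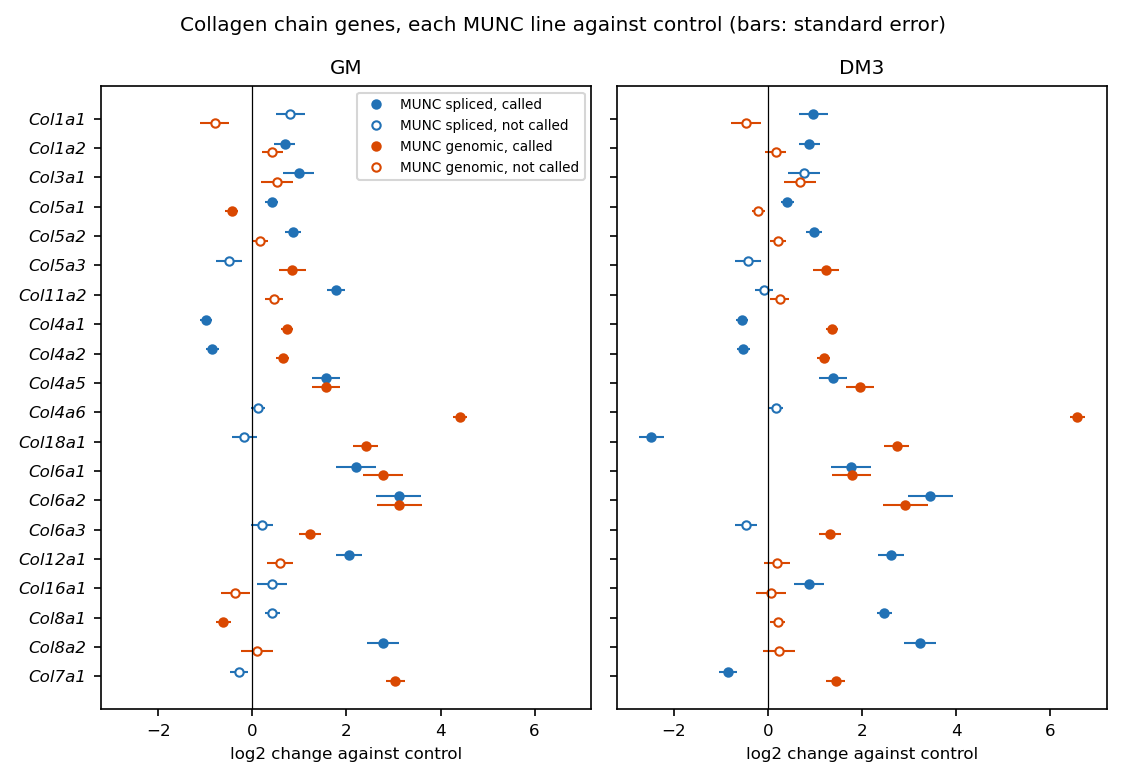
Log2 change of 20 collagen chain genes (rows) in MUNC spliced and MUNC genomic cells against control (horizontal axes), in GM (left) and DM3 (right). Filled points are called at an adjusted p below 0.05 by limma, open points are not, and bars are standard errors. Col4a6 and Col8a2 were tested only through the line where each was high. Their filled points are no support for a difference, and the size of their change depends on the pseudocount. Both lines are called on opposite sides of 0 for Col4a1 and Col4a2 in both media, for Col5a1 in GM and for Col7a1 and Col18a1 in DM3.

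Of the 14 chains not tested, Col13a1, a membrane collagen of the neuromuscular junction, and Col9a1, a cartilage chain, were at 0 in all 18 libraries. Col4a3, Col6a5, Col6a6, Col9a2, Col15a1, Col23a1, Col25a1 and Col26a1 had reads but never exceeded 0.5 FPM, and Col2a1, Col4a4, Col10a1 and Col19a1 exceeded it in fewer than 3 libraries. Among tested chains of low level, Col17a1 (a membrane collagen of skin) and Col28a1 did not exceed 1.17 and 4.34 FPM in any library.

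Collagen chains are hydroxylated and folded in the endoplasmic reticulum, trimmed outside the cell and cross-linked, and a list of 22 genes for folding and modification was followed beside them. Of its 21 tested genes, 8 and 4 were higher and lower in control DM3 than GM, where 58.2% of all genes were called. Against control the counts were 5 and 2 in MUNC spliced GM (35.5% of all genes), 4 and 3 in MUNC spliced DM3 (43.3%), 5 and 5 in MUNC genomic GM (26.8%) and 5 and 7 in MUNC genomic DM3 (40.3%). Plod2, the lysyl hydroxylase of the telopeptides, rose most in control, from 227 ± 48.2 to 642 ± 58.02 FPM (log2 change 1.51, SE 0.27, adjusted p = 0.000168), and Mia2, which helps to export procollagen, fell most (log2 change -0.45, SE 0.10, adjusted p = 0.000778). P3h2, a prolyl hydroxylase of basement membrane collagen, was highest by fitted change in MUNC spliced GM and DM3, at 16.1 and 8.61 FPM against 0.0283 and 0.0439 in control, and in MUNC genomic DM3 at 7.37 FPM. No control library reached the filter for P3h2, so its place among the 21 tested genes rested on MUNC libraries. P3h3 was lowest in MUNC genomic cells, at 0.206 FPM in GM and 0.0282 in DM3 against 7.25 and 10.7 in control. P4ha3, a prolyl hydroxylase subunit, was highest by change in MUNC genomic GM (log2 change 1.87, SE 0.17, adjusted p = 3.27e-07).

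Of 10 tested genes for procollagen processing and cross-linking (13 in the list), 2 and 2 were higher and lower in control DM3 than GM, where 58.2% of all genes were called. Against control the counts were 2 and 2 in MUNC spliced GM (35.5% of all genes), 3 and 4 in MUNC spliced DM3 (43.3%), 3 and 1 in MUNC genomic GM (26.8%) and 4 and 3 in MUNC genomic DM3 (40.3%). Loxl2, a lysyl oxidase that acts on type IV collagen, was 7.78 ± 2.42 FPM in control GM and 252 ± 127 in MUNC genomic GM (log2 change 4.75, SE 0.33, adjusted p = 1.21e-08), and 3.94 ± 1.67 and 795 ± 29.8 in DM3 (log2 change 7.40, SE 0.33, adjusted p = 3.38e-11). In MUNC spliced DM3 it was lowest of the list (log2 change -1.34, SE 0.33, adjusted p = 0.00390). Adamts2, which removes the amino propeptide of fibrillar procollagens, was highest by change in MUNC spliced GM (log2 change 2.66, SE 0.36, adjusted p = 3.38e-05) and DM3 (log2 change 2.79, SE 0.36, adjusted p = 1.24e-05). Adamts14, a relative of it, was lowest by change in MUNC spliced GM (log2 change -0.85, SE 0.27, adjusted p = 0.0238), a call that missed the threshold without control GM replicate 2 or 3 or MUNC spliced GM replicate 1 (adjusted p = 0.0595 to 0.114), without the filter on low values (0.0546) and in a fit of only the compared groups (0.0652). Pcolce2, an enhancer of carboxy propeptide removal, fell most in control from 63.7 ± 21.4 to 2.17 ± 1.26 FPM (log2 change -4.37, SE 0.34, adjusted p = 1.22e-07), and Pcolce, its relative, rose most (log2 change 0.48, SE 0.17, adjusted p = 0.0216). The rise of Pcolce missed the threshold without control GM replicate 3 or control DM3 replicate 3 (adjusted p = 0.0726 to 0.0873). Loxl1 was lowest in MUNC genomic GM (log2 change -1.16, SE 0.15, adjusted p = 2.19e-05) and Loxl3 in MUNC genomic DM3 (log2 change -0.52, SE 0.17, adjusted p = 0.0198), where Loxl3 missed the threshold without control DM3 replicate 2 or 3 or MUNC genomic DM3 replicate 1 (adjusted p = 0.0508 to 0.0881).

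Fibril partners are proteoglycans and glycoproteins that bind fibrils and shape them. Of 13 tested fibril partners (16 in the list), 9 and 0 were higher and lower in DM3 than GM in control. Of all genes, 58.2% were called there, 29.6% and 28.6% higher and lower. In MUNC spliced cells 7 and 0 were called (35.6%, 17.2% and 18.4%), and in MUNC genomic cells 8 and 1 (51.4%, 26.3% and 25.1%). The proteoglycan Dcn (decorin) rose most in control, from 17.4 ± 11.5 to 186 ± 57.9 FPM (log2 change 3.56, SE 0.72, adjusted p = 0.000512). Against control, 6 and 1 were higher and lower in MUNC spliced GM (35.5%, 18.2% and 17.3%) and 6 and 2 in MUNC spliced DM3 (43.3%, 22.3% and 21.0%). In MUNC genomic cells 1 and 2 were called in GM (26.8%, 12.2% and 14.5%) and 2 and 3 in DM3 (40.3%, 19.3% and 20.9%). Fmod and Prelp reached the filter in no control library, so their place among the 13 rested on MUNC libraries. Fmod was called higher in MUNC spliced GM and DM3, and these calls are no support for a difference. Prelp, a small proteoglycan, was 25.9 and 133 FPM in MUNC spliced GM and DM3 and 0.0393 and 0.0324 in control. Thbs2, a matricellular protein that affects fibril shape, was lowest by change in MUNC spliced GM (log2 change -2.41, SE 0.20, adjusted p = 1.84e-07) and DM3 (log2 change -2.18, SE 0.20, adjusted p = 4.11e-07) and in MUNC genomic GM (log2 change -1.33, SE 0.20, adjusted p = 0.000134) and DM3 (log2 change -1.90, SE 0.20, adjusted p = 1.39e-06). Postn (periostin) was highest by change in MUNC genomic GM (log2 change 1.59, SE 0.32, adjusted p = 0.00156) and Lum (lumican) in MUNC genomic DM3 (log2 change 2.06, SE 0.39, adjusted p = 0.000468), where Lum missed the threshold by DESeq2 on recovered reads (0.0502). The tendon markers include Fmod, which is in this list too.

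Of 7 tested collagen receptors (11 in the list), 3 rose in control on differentiation, and none fell, beside 29.6% of all genes called higher. Against control, 2 were higher in MUNC spliced GM (18.2% of all genes), 3 in MUNC spliced DM3 (22.3%), 2 in MUNC genomic GM (12.2%) and 3 in MUNC genomic DM3 (19.3%), and none was lower. Itga10, an integrin subunit for collagen, rose most in control, from 3.32 ± 1.03 to 47.1 ± 14.4 FPM (log2 change 3.46, SE 0.41, adjusted p = 4.31e-06). Itga11, the integrin subunit for fibrillar collagen, was highest by change in MUNC spliced GM (log2 change 1.28, SE 0.35, adjusted p = 0.00948) and DM3 (log2 change 2.82, SE 0.35, adjusted p = 8.34e-06), and Adgrg1, a receptor for type III collagen, in MUNC genomic GM (log2 change 1.34, SE 0.26, adjusted p = 0.00110) and DM3 (log2 change 1.33, SE 0.26, adjusted p = 0.000654). The GM call of Itga11 missed the threshold without MUNC spliced GM replicate 2 (adjusted p = 0.0567).

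The 5 genes most like Col1a1 over the 6 group means of log2(FPM + 1) included 1 other chain, Col5a1, at Pearson's r = 0.994. The others were 2810468N07Rik (0.995), Ccdc166 (0.995), Sim2 (0.994) and 1810024B03Rik (0.993). With 6 points this is a description of group means only, and 3 of these 5 never averaged 3 FPM in a group.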

How the data were processed

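Polyadenylated RNA of 18 cultures was sequenced on an Illumina instrument, per the labels' protocols. The submitters' processing notes name STAR, HTSeq, DESeq2 and mm10, and their roles, versions and the gene annotation are not given in the sources used here. The deposited table is labelled FPKM, but the authors' values behave as normalized signal scaled to a common library size (FPM): divided by 1 fixed step per library, all became whole reads within 0.05, and they keep no division by gene length. The deposited gene symbols, paired with gene identifiers, were used to choose members. Groups and replicate numbers came from the sample titles. The source name gave the other state, myoblast or myotube, in 9 samples. Nothing in the labels says more of the replicates than that they are biological.

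Here log2(FPM + 1) was fitted with limma 3.58.1 in R 4.3.3 (lmFit, contrasts.fit and eBayes with trend) over all 18 libraries and 6 group means, with 12 residual degrees of freedom, on the 13869 genes that reached 0.5 FPM in 3 or more libraries. P-values were adjusted by Benjamini-Hochberg within each of 11 comparisons and called below 0.05. An interaction is the change on differentiation in a MUNC line minus that in control. The fit was tested on simulated data. Alternatives were a pseudocount of 0.1, no filter, equal sums per library (FPM sums ran from 946834 to 1048477), only the compared groups, edgeR 4.0.16 and DESeq2 1.42.0 on the recovered reads, the replicate number as a block, and each library left out. Deviations of same-numbered libraries from their group means correlated in every pair (r from 0.171 to 0.727) in 6 comparisons, in which the block is printed where it changes a call: control DM3 against GM, both MUNC lines against control in each medium, and the MUNC lines against each other in GM. Lengths were those of the longest principal transcript of GENCODE M21 (GRCm38, in which 97.8% of identifiers were found), and promoters those of RefSeq, GRCm38.p6, in which 35 of 44 members were matched.

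The members, classes, marker lists and tests were chosen with earlier results of these data known. Values in every library are given for members with a group mean of at least 20 FPM and for the called member that rose or fell most in each comparison if its higher group averaged at least 5 FPM. Genes of the maturation, partner and receptor lists are named where they rose or fell most.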

Additional observations from a re-analysis of the deposited data

Results flagged for a closer look

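The change on differentiation differed from that in control, by limma's interaction test, for 5 chains in MUNC spliced and 5 in MUNC genomic cells. All values are differences of log2 changes. In MUNC spliced cells they were -1.86 for Col11a2, -2.31 for Col18a1, 0.66 for Col24a1, 2.05 for Col8a1 and -0.72 for Col9a3. In MUNC genomic cells they were 0.62 for Col4a1, 2.16 for Col4a6, -1.60 for Col7a1, 0.83 for Col8a1 and -0.94 for Col9a3. Col24a1 and Col9a3, a fibrillar and a fibril-associated chain, reached at most 1.65 and 2.29 FPM in any library. Col24a1 was at the filter in the 3 MUNC spliced DM3 libraries alone, and Col4a6 in the MUNC genomic libraries alone. Both were thus tested through groups where they were high, and their interactions are no support for a different change. The Col24a1 value missed the threshold without control GM replicate 1, MUNC spliced GM replicate 2 or 3, control DM3 replicate 1 or 3 or MUNC spliced DM3 replicate 3 (adjusted p = 0.0510 to 0.0771), with a pseudocount of 0.1 (0.202), in a fit of only the compared groups (0.0535), by edgeR on recovered reads (0.555) and by DESeq2 on recovered reads (0.573). The Col9a3 value in MUNC spliced cells missed the threshold without control GM replicate 1 or 3, MUNC spliced GM replicate 2 or 3, control DM3 replicate 1, 2 or 3 or MUNC spliced DM3 replicate 1 or 2 (adjusted p = 0.0621 to 0.111), with a pseudocount of 0.1 (0.0833), without the filter on low values (0.0791), in a fit of only the compared groups (0.0881), by edgeR on recovered reads (0.136) and by DESeq2 on recovered reads (0.101), and that in MUNC genomic cells missed the threshold by edgeR on recovered reads (0.0927). Single outlying libraries were not tested in groups of 3.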

How the results depend on the processing

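Members called under the alternatives numbered 13 to 16 (control DM3 against GM, 15 as reported), 7 to 11 (MUNC spliced DM3 against GM, 10), 7 to 9 (MUNC genomic DM3 against GM, 9), 11 to 21 and 13 to 19 (MUNC spliced and MUNC genomic against control GM, 14 and 15), 19 to 22 and 16 to 19 (the same in DM3, 20 and 18) and 19 to 21 and 22 to 26 (MUNC spliced against MUNC genomic in GM and DM3, 18 and 23). With each library left out in turn these counts ran from 12 to 15, 7 to 10, 8 to 10, 10 to 16, 13 to 17, 18 to 20, 15 to 17, 17 to 19 and 21 to 22, in the same order. The count for the MUNC spliced interaction, 5 as reported, was 3 in a fit of only the compared groups and 3 to 5 with 1 library left out. That for the MUNC genomic interaction, also 5, was 3 with no filter on low values and by edgeR on the recovered reads, and 3 to 5 with 1 library left out. In all of these the cause was not tested.

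Of 142 single differences reported, 16 fell short of the threshold with no filter on low values, 14 in a fit of only the compared groups, 4 with a pseudocount of 0.1, 4 by edgeR, 3 by DESeq2 and 3 with equal sums. The sign of the Col4a6 interaction in MUNC genomic cells changed by edgeR (-0.10) and DESeq2 (-0.42). Signs of uncalled differences changed for Col18a1 in MUNC spliced against control GM, to 0.042 without control GM replicate 2 and 0.083 without MUNC spliced GM replicate 1 (down to -0.46 without MUNC spliced GM replicate 2), and for Col7a1 in control DM3 against GM, to 0.029 without control GM replicate 3 (down to -0.25 without control GM replicate 2).

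With the replicate number as a block, members called numbered 15, 10 and 9 (differentiation of control, MUNC spliced and MUNC genomic cells), 17 and 18 (MUNC spliced and MUNC genomic against control GM), 22 and 18 (the same in DM3), 21 and 25 (MUNC spliced against MUNC genomic in GM and DM3), and 7 and 5 (the interactions). The block ended none of the calls reported and added 5, each printed beside its result. Over all 45 same-numbered pairs of libraries, deviations from group means had a median r of 0.291, with 36 over 0.1, against -0.124 over 90 other pairs. The depth limits statements on chains near 3 reads per library.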
